A study of Mus musculus with 2 samples.

Results

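Neutrophil-like nuclei were identified in a single-nucleus RNA-seq library of mouse hematoma/callus at day 5 after musculoskeletal traumatic injury (MTI), by a rule on marker genes. A nucleus was a member when it held at least 3 UMIs (unique molecular identifiers, each counting 1 captured RNA molecule) of S100a8, S100a9, Csf3r and Cxcr2 together. This sum also had to exceed the sum of Adgre1, Csf1r, Mertk, Ms4a7 and Cd84 (macrophage genes), that of Ccr2, Ly6c2, Plac8 and Chil3 (monocyte genes), and that of Col1a1, Col1a2, Col3a1, Col5a1, Postn and Pdgfra (stromal genes). The rule was applied to barcodes with 200 to 5000 detected genes, under 5% mitochondrial UMIs and under 2% ribosomal protein UMIs. It found 99 members among 1127 filtered nuclei, or 8.78% of them (exact Clopper-Pearson 95% interval 7.20% to 10.6%), from 1446 barcodes in the library and 50433 in the series.

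The series holds 2 libraries of nuclei from periosteum and hematoma/callus of C57BL6 mice aged 10 to 14 weeks, males and females mixed, each made from the pooled injured tibias of 3 or 4 mice. The MTI library was taken at day 5 after an open, non-stabilised tibial fracture combined with a compression injury of the surrounding muscles. The other library was taken at day 1 after the fracture alone. The tissue around the tibia was removed at collection, and nuclei were sorted on a nucleic acid stain only. There was 1 library per condition, so no test between conditions was possible, and injury and day cannot be told apart. Nuclei of 1 pooled library are not replicates, and intervals given here cover counting error only.

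Neutrophils are short-lived granulocytes made in the bone marrow and among the first leukocytes to enter a fracture hematoma. They make their granules in sequence: primary granule proteins as promyelocytes, specific granule proteins such as lactoferrin as myelocytes, and gelatinase granule proteins as they mature. Mature cells carry the G-CSF receptor Csf3r and the chemokine receptor Cxcr2, engulf microbes and debris, and release interleukin 1β, lipid mediators and reactive oxygen.

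Members were chosen by the UMIs of the 4 neutrophil genes and of the 3 excluding sets, and the levels of the 4 genes are given as a description. Csf3r (mm10 chr4:126024550-126044440, + strand) gave 413 UMIs in 88 members, a pooled 2854 UMIs per 1000000 (CPM; exact Poisson 95% interval 2585 to 3143). S100a9 (chr3:90692632-90695721, - strand), a subunit of the antimicrobial protein calprotectin, gave 227 UMIs in 69 members. Its partner S100a8 (chr3:90668978-90670035, + strand) gave 76 UMIs in 46 members, and Cxcr2 (chr1:74153989-74161246, + strand) gave 34 UMIs in 27 members. The sum per member ran from 3 to 28 UMIs with a median of 6.0, and 90 of the 99 members held a UMI of a receptor gene. The 12 members just inside the threshold, with exactly 3 rule UMIs, had a median of 5.5 UMIs over 19 other neutrophil markers. The 14 nuclei just outside it, with 2 rule UMIs and all other conditions met, had a median of 3.0. The 12 members with exactly 4 rule UMIs had a median of 3.5, so the medians did not rise steadily with rule UMIs. A further 44 filtered nuclei reached 3 rule UMIs but were outdone by another gene set, that of macrophages in 35 of them.

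The label was checked against those 19 markers, which the rule did not use. All 19 were detected in the members, 12 of them with at least 10 UMIs, and 88 of 99 members held at least 1 such UMI. Their summed level was 3877 CPM in the members against 332.4 CPM in 350 macrophage-like nuclei, 550.2 CPM in 24 monocyte-like nuclei and 78.7 CPM in 232 stromal nuclei, each of these classes made by the same rule with its own genes leading. At least 1 UMI of the 19 markers was also held by 52.0% of macrophage-like, 62.5% of monocyte-like and 20.7% of stromal nuclei. Clustering without any rule gene placed 80 of the 99 members in a single cluster of 130 nuclei. Of the 5 genes leading that cluster by fold, Ltf, Stfa2l1, Hdc and Il1b were present in the members, whereas Klri1, a lectin-like receptor of natural killer cells, had 0 UMIs in the members and came from the 50 other nuclei. Of these 50 nuclei, 22 had no UMI of the 4 rule genes, and 34 held a UMI of the 19 markers. The remaining 19 members were spread over 7 other clusters. At the finer resolution of 1.5, in place of 1.0, the cluster with most members had 76 nuclei and held 61 of the 99, and the other 38 were spread over 8 clusters.

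The members were shallow. Their median was 833.0 UMIs (quartiles 651.5 and 1206.5) and 544.0 genes, against medians of 4108.5 UMIs in macrophage-like, 3245.5 in monocyte-like and 3260.5 in stromal nuclei. Of the members, 65.7% had under 1000 UMIs, against 3.43% of macrophage-like nuclei. Thus the members made 8.78% of nuclei but 3.34% of the UMIs. Their median mitochondrial share was 0.33%, against 0.11% in macrophage-like and 1.26% in monocyte-like nuclei. The 6 deepest members, with 4703 to 17734 UMIs, held 36.3% of all member UMIs.

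**Figure D1:**
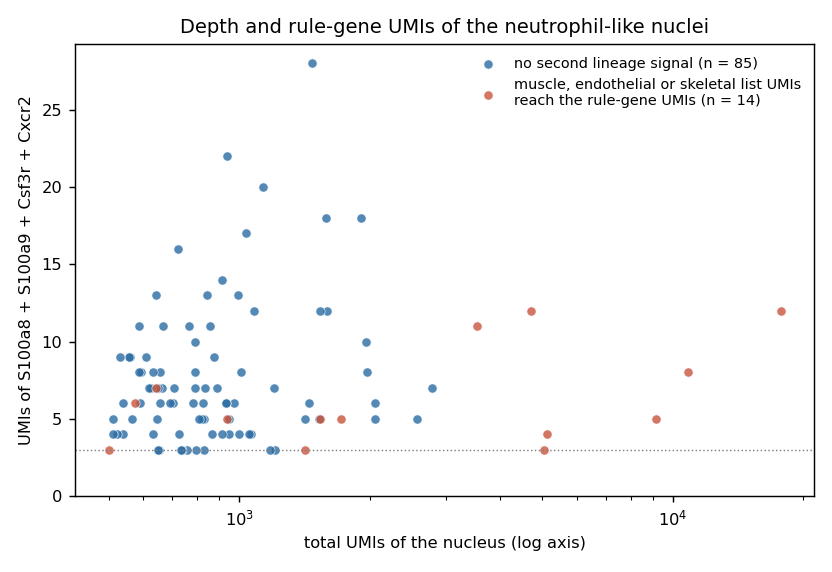
Total UMIs (horizontal, log axis) against the summed UMIs of the 4 rule genes (vertical) for each of the 99 neutrophil-like nuclei, with the threshold of 3 as a dotted line. The 14 nuclei in red, whose UMIs of a muscle, endothelial or skeletal list reached their rule-gene UMIs, include the 7 deepest; the 85 others lie between 511 and 2781 UMIs.

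These deep nuclei carried genes of other lineages. The deepest, with 17734 UMIs, held 12 rule UMIs but 588 UMIs of the muscle list (10 genes, among them Ttn and Neb, the giant proteins of the sarcomere) and 61 of the endothelial list. The nucleus with 10833 UMIs held 302 muscle UMIs, and that with 9133 UMIs held 155 UMIs of the skeletal list, which includes the cartilage genes Acan and Col2a1. In 14 members the UMIs of at least 1 of these 3 lists reached the rule UMIs (muscle in 8, endothelial in 5, skeletal in 6). These 14 nuclei held 43.8% of the member UMIs, 1220 of the 1256 muscle UMIs and 191 of the 205 endothelial UMIs. They also held neutrophil markers outside the rule, 66 UMIs in 13 of the 14, or 1040 CPM against 6090 CPM in the other 85 members. The 2 deepest held 1 such UMI each. Of the 14, 4 lay in the cluster of 130 nuclei that held most members, against 76 of the 85. The other 85 members held 0 to 4 muscle UMIs and 0 to 2 endothelial UMIs each. A doublet caller marked 3 of the 1127 nuclei, none of them a member; the part of doublets or free RNA in these 14 nuclei was not tested. Because the pooled levels of 99 members mix these lineages, values below are for all 99 unless the 85, a subset chosen after seeing the data, are named.

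The members were compared with macrophage-like nuclei, the main phagocytes of this library. Of 10875 genes with at least 10 UMIs over both groups, rule genes left out, 19.6% were at least 2-fold higher in the 99 members and 17.8% at least 2-fold lower. For the 85 members the shares were 18.9% and 17.3% of 10580 genes. Counts by list given below are to be set beside these shares. Calls were made on the ratio without its interval, so a gene with few UMIs can pass 2-fold through counting error. The median ratio over all genes tested was 0.87 with 99 members, or 1.05 with groups at 0 set to the floor of 3 UMIs, and 0.75 with 85. The rule kept macrophage genes low in the members, so the direction of genes that go with them is partly set by it, and the values are a description.

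**Figure D2:**
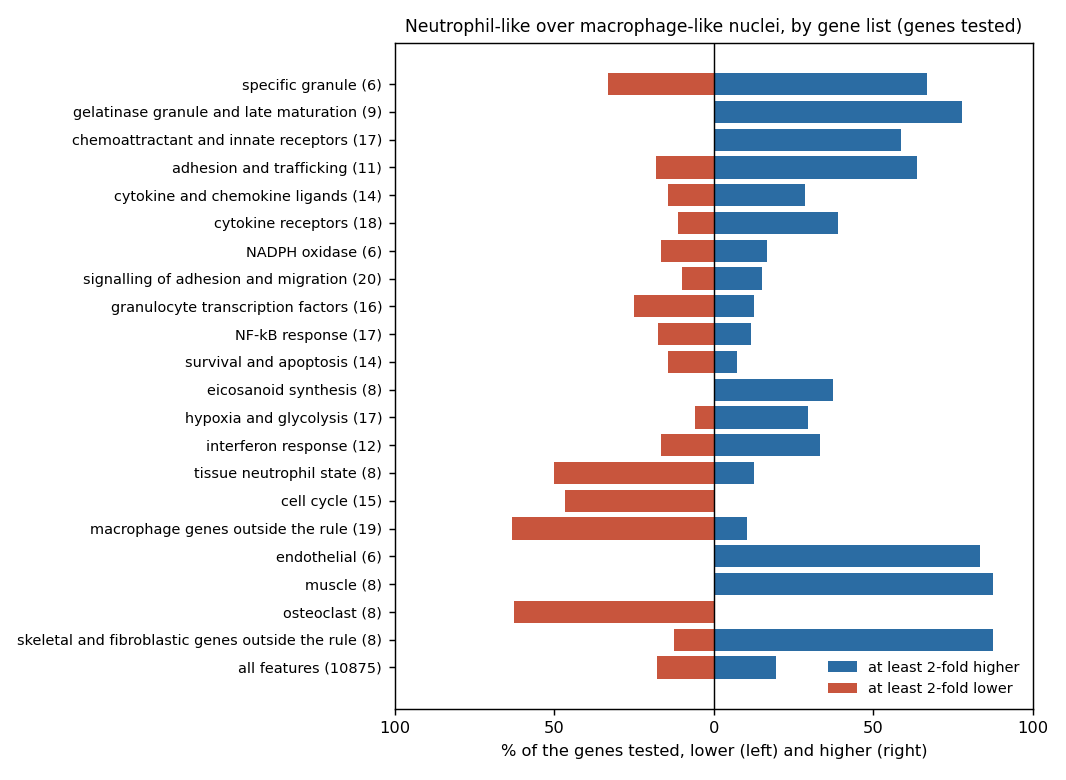
Share of the genes tested in each list (number in brackets) that were at least 2-fold higher (blue, right) or at least 2-fold lower (red, left) in the 99 neutrophil-like than in the 350 macrophage-like nuclei. Genes of the gelatinase granule and late maturation list were higher in 7 of 9 and lower in 0. Macrophage genes outside the rule were higher in 2 and lower in 12 of 19. With the 99 members the muscle list was higher in 7 of 8, the endothelial in 5 of 6 and the skeletal in 7 of 8. With the 85, not drawn here, these were 1 of 6, 0 of 4 and 5 of 7. All features are the bottom bar (19.6% higher, 17.8% lower).

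Granule genes differed by class. Primary granule genes gave few UMIs: Mpo, the myeloperoxidase gene, gave 6 UMIs, all in 1 member, and Elane (neutrophil elastase) and Ctsg (cathepsin G) 1 UMI each. That list summed to 10 UMIs in 2.02% of members, or 69.1 CPM against 1.20 CPM in macrophage-like nuclei. Too few UMIs were found to test its genes against macrophage-like nuclei. Against all other filtered nuclei 2 of 2 genes tested were at least 2-fold higher. In the specific granule list, 4 of the 6 genes tested were at least 2-fold higher and 2 lower, and with the 85 members 2 of 4 were higher and 1 lower. Ltf, encoding the iron-binding lactoferrin, gave 52 UMIs in the members and 3 in macrophage-like nuclei, a CPM ratio of 200.3 (exact conditional 95% interval 64.9 to 1003). Lcn2, the siderophore-binding lipocalin, gave 10 UMIs in 7 members and 0 in macrophage-like nuclei, at least 38.5-fold higher against a floor of 3 UMIs over that group. Ngp and Cd177 gave 9 UMIs each in the members and 1 each in macrophage-like nuclei. The 2 lower genes were shared phagocyte genes, Lyz2 (lysozyme, ratio 0.16) and Cybb (the oxidase subunit gp91phox, ratio 0.45, and 0.80 with the 85).

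Of 9 gelatinase granule and late maturation genes tested, 7 were at least 2-fold higher and 0 lower, and with the 85 members all 9 were higher, with a median ratio of 27.4 for 99 members and 43.7 for 85. Hdc, the enzyme that makes histamine, gave 108 UMIs in 40 members (746.3 CPM, 612.2 to 901.0) against 8.97 CPM in macrophage-like nuclei, a ratio of 83.2 (48.3 to 153.8). It gave 0 UMIs in monocyte-like nuclei. Mxd1, a MYC antagonist of maturing granulocytes, gave 85 UMIs in 46 members, with a ratio of 18.9 (13.2 to 27.2). Stfa2l1, a stefin-family protease inhibitor gene, gave 20 UMIs and a ratio of 77.0 (22.9 to 404.9), though this family has near-identical copies whose reads may be split. Mmp8, the neutrophil collagenase, gave 21 UMIs in 11 members (ratio 48.5, 17.8 to 164.8), and the resistin-like Retnlg 12 UMIs in 8 members (ratio 69.3, 15.4 to 638). Arg2, the mitochondrial arginase, gave 38 UMIs (ratio 27.4, 14.9 to 52.7). Mmp9, gelatinase B, was not past the fold with 99 members, at 1.45 (0.77 to 2.53), and macrophage-like nuclei held 112 UMIs of it.

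Among ligands, Il1b stood out. It gave 208 UMIs in 53 of the 99 members, or 1437 CPM (1249 to 1646), against 23.3 CPM in macrophage-like and 24.9 CPM in stromal nuclei. The ratio to macrophage-like nuclei was 61.6 (43.6 to 89.2), and 102.9 with the 85 members. Monocyte-like nuclei held more, 583.2 CPM, and the members exceeded them by 2.46 (1.81 to 3.40). The chemokine gene Cxcl2 gave 26 UMIs in 14 members, a ratio of 5.57 (3.35 to 9.04) to macrophage-like and 1.09 (0.56 to 2.21) to monocyte-like nuclei. Thbs1, encoding thrombospondin 1, was 3.93 times (2.81 to 5.41) the macrophage-like level and 0.44 times (0.30 to 0.63) the monocyte-like level. Other inflammatory ligands were scarce, with Tnf and Osm at 3 UMIs, Ccl3 at 1, and Il1rn, Cxcl1, Cxcl3, Ccl4 and Ccl9 at 0. Of the 14 ligand genes tested, 4 were at least 2-fold higher and 2 lower, with a median ratio of 0.85 (1.32 with groups at the floor), the lower ones being Ccl9 and Spp1 (osteopontin, ratio 0.13). With the 85 members 4 were higher and 1 lower. Over all genes tested 19.6% were higher and 17.8% lower with 99 members, and 18.9% and 17.3% with 85.

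Some IL-1 receptor genes were found in the members too, mainly a decoy and a co-receptor. Il1r2, the decoy receptor that binds IL-1 without signalling, gave 130 UMIs in 51 members, or 898.3 CPM against 23.3 CPM in macrophage-like nuclei, a ratio of 38.5 (26.8 to 56.6). The co-receptor Il1rap gave 81 UMIs in 36 members, a ratio of 10.3 (7.53 to 14.03). The signalling receptor Il1r1 gave 9 UMIs, of which 1 was in the 85 members. Il18rap, the accessory chain of the IL-18 receptor, gave 62 UMIs in 41 members (ratio 47.8, 26.9 to 90.4). Csf2rb, the common β chain of the GM-CSF receptor, had a ratio of 5.26 (3.63 to 7.53). In all, 7 of 18 cytokine receptor genes were at least 2-fold higher and 2 lower, with a median ratio of 0.88, and with the 85 members 7 were higher and 1 lower.

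Receptors that sense microbes and chemoattractants were higher in 10 of 17 genes tested and lower in 0, with a median ratio of 2.23, and with the 85 members higher in 11 of 17 and lower in 0. Trem3 (ratio 23.1, 10.3 to 55.3), Fpr1, the formyl peptide receptor (19.3, 6.34 to 64.5), and Trem1, an amplifier of inflammatory signals (16.8, 7.33 to 40.1), had the widest gaps among genes with at least 10 UMIs in the members. Clec4e was 9.04-fold higher (4.60 to 17.5) and its neighbour Clec4d 2.23-fold (1.63 to 2.99). C5ar1, Ptafr, Tlr4, Tlr13 and Fcgr3 were within 2-fold of macrophage-like nuclei. Cxcr4, a receptor linked to ageing and marrow retention, gave 5 UMIs, and Cxcr1 gave 0.

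In the adhesion list 7 of 11 genes were higher and 2 lower, with a median ratio of 2.72, and with the 85 members 8 were higher and 2 lower. Selplg, the selectin ligand PSGL-1, was at 3.66 (2.36 to 5.53), the integrin chain Itgal at 5.53 (3.17 to 9.38), Itgam (CD11b) at 2.72 (2.21 to 3.33) and the hyaluronan receptor Cd44 at 2.11 (1.80 to 2.46). Itga4, the α4 integrin of monocytes and lymphocytes, was lower at 0.30 (0.15 to 0.54). Itgam and Cd44 did not differ beyond counting error from monocyte-like nuclei (0.93, 0.69 to 1.25, and 1.21, 0.95 to 1.56).

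Of 20 signalling genes 3 were higher and 2 lower with 99 members, and 6 and 1 with 85, with median ratios of 1.06 and 1.60. The shares over all genes tested were 19.6% higher and 17.8% lower with 99 members, and 18.9% and 17.3% with 85. Fgr, a SRC-family kinase of integrin signalling, was 2.66-fold higher (2.17 to 3.24). Alox5, 5-lipoxygenase, which starts leukotriene synthesis, gave 46 UMIs in 32 members and a ratio of 10.85 (7.10 to 16.6). Its downstream enzyme Lta4h was at 1.20. In the hypoxia and glycolysis list 5 of 17 genes were higher and 1 lower with 99 members, and 7 and 0 with 85, led by the glucose transporter Slc2a3 (6.996, 3.98 to 12.1), while Hif1a and Ldha were near 1.

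Of 16 transcription factor genes tested, 2 were higher and 4 lower with 99 members, and 5 and 4 with 85, with median ratios of 1.33 and 1.54. For this and the next lists, the shares over all genes tested were 19.6% higher and 17.8% lower with 99 members. With 85 they were 18.9% and 17.3%. Zeb2 was at 1230 CPM in the members and 6382 CPM in macrophage-like nuclei, a ratio of 0.19 (0.17 to 0.22). Maf (0.12) and Irf8 (0.087), regulators of monocytes and macrophages, were also lower. Ets2 (8.45, 4.42 to 15.9) and Nfil3 (5.39, 2.64 to 10.5) were higher, and Spi1, encoding PU.1, was at 1.01 (0.71 to 1.42). The early granulocyte factors Cebpe and Gfi1 gave 0 UMIs in the members. Of 12 interferon response genes tested 4 were higher and 2 lower with 99 members, and 5 and 1 with 85. Among all 21 genes of that list 8 gave 0 UMIs, and the list's UMIs came mostly from Schlafen genes, with Slfn4 at 92 UMIs in 32 members (8.51, 6.43 to 11.2) and Slfn1 at 22 UMIs (14.1, 7.23 to 27.9). In the NF-kB list 2 of 17 genes were higher (Acod1 and Ptgs2) and 3 lower, with a median ratio of 0.68, and with the 85 members 2 were higher and 7 lower (median 0.70). In the survival list 1 of 14 genes was higher and 2 lower with 99 members, and 3 and 3 with 85. The higher one with 99 members was Pim1 (3.56, 2.15 to 5.68), and Mcl1, which keeps neutrophils alive, was at 1.28 (0.93 to 1.74). Of the 8 tissue neutrophil genes tested 1 was higher and 4 lower, with a median ratio of 0.42 (0.50 with groups at the floor), and with the 85 members 1 was higher and 3 lower. The higher one was Nlrp3 (4.73, 2.90 to 7.503), the lower ones with 99 members were Cd274, Icam1, Cstb and Ppia, each with 1 to 4 UMIs, and Siglecf gave 2 UMIs. No cell cycle gene of 15 was higher with 99 members, and 7 were lower, with a median ratio of 0.40 (0.75 with groups at the floor). With the 85 members 1 was higher and 4 lower. Mki67 gave 8 UMIs in 5 members.

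Macrophage genes outside the rule summed to 1244 CPM in the 99 members and 775.1 CPM in the 85, against 6911 CPM in macrophage-like nuclei, and 81 of their 180 UMIs lay in a single member. Of 19 such genes 2 were at least 2-fold higher, Mrc2 (4.76) and H2-Aa (2.63), on 7 and 5 UMIs. A further 12 were at least 2-fold lower (2 and 12 with the 85 as well), with a median ratio over the list of 0.20, among them Gpnmb (3 UMIs against 1048), Mrc1 (12 against 1642, with 2 of the 12 in the 85 members) and F13a1 (59 against 3299, with 2 in the 85). Marker lists of other leukocytes had few UMIs but a higher summed CPM than in macrophage-like nuclei. Dendritic cell genes gave 16 UMIs in 11 members, or 110.6 CPM against 32.3 CPM, and all 3 genes tested (Flt3, Zbtb46 and Bcl11a) were at least 2-fold higher, on 3 to 5 UMIs each, and 2 of 3 with the 85. T and NK cell genes gave 11 UMIs in 9 members, or 76.0 CPM against 22.1 CPM. B and plasma cell genes gave 61 UMIs in 17 members, or 421.5 CPM against 128.5 CPM, of which 50 UMIs were Ebf1, a factor that stromal cells express as well. In the 85 members the B and plasma cell list gave 15 UMIs (184.5 CPM). Mast cell, basophil and eosinophil genes gave 6 UMIs in 5 members, or 41.5 CPM against 4.19 CPM, with Ccr3, Prg2 and Epx at 0. The part of these cell types in the results was not tested. The T cell genes Cd3e and Trac, the B cell gene Cd79a and the globin genes Hbb-bs and Hba-a1 were at 0. Of 8 osteoclast genes 0 were higher and 5 lower (1 and 3 with the 85), with Acp5, Oscar and Dcstamp at 0 UMIs and Atp6v0d2 at 1.

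The 12 named genes with the highest ratio to macrophage-like nuclei were Hapln1, Myh3, Ltf, Musk, Pdlim3, Ankrd1, Hspb8, Hdc, Kcnn3, Rbm20, Trdn and Chrm3. Ltf and Hdc apart, each was found in 3 to 9 members and had 0 to 8 UMIs in the 85. Hapln1, a cartilage link protein gene, had 51 of its 54 UMIs in 1 member, and Pdlim3, a muscle Z-disc gene, 176 of 221. With the 85 members the 12 included Ltf, Hdc, Rdh12, Nlrp12, Il1b, Rab44, Il18rap, Cd101, Mirt1, Trim30b and Il1r2, with ratios of 336.1 for Ltf down to 56.5 for Il1r2. Ttn moved from a ratio of 31.8 to 1.59 and Neb from 59.7 to 1.56. The 12 lowest with 99 members included Atp6v0d2, Gpnmb, Ctsk, St18, Lpxn, Ms4a4a, Gas2l3, Arhgap12, Blnk, Ctsc and Ms4a6c, with ratios from 0.022 to 0.049.

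**Figure D3:**
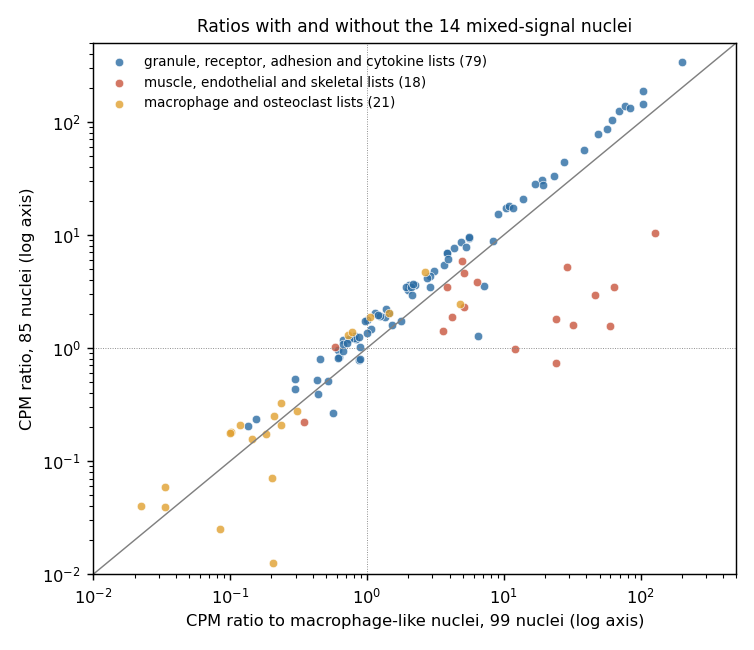
CPM ratio of neutrophil-like over macrophage-like nuclei with all 99 members (horizontal) and with the 85 without a second lineage signal (vertical), both on log axes, for list genes with UMIs in all groups; the solid line marks equal ratios and dotted lines a ratio of 1. Granule, receptor, adhesion and cytokine genes (blue) lie mostly above the line, whereas muscle, endothelial and skeletal genes (red) lie below it, Ttn going from 31.8 to 1.59.

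Against all 1028 other filtered nuclei, the 12 highest named genes with 99 members were Ltf (71.7-fold, 42.5 to 125.4), Hdc (63.9, 45.2 to 91.4), Nlrp12 (57.9, 34.4 to 100.2), Mmp8 (55.3), Stfa2l1 (52.7), Cd101 (39.0), Rab44 (38.9), Rdh12 (35.0), Arg2 (34.4), Il1r2 (33.3), Mirt1 (31.6) and Il1b (31.6, 25.8 to 38.6). The same 12 genes led with the 85 members. Here 16.9% of 15195 genes were at least 2-fold higher and 13.5% lower with 99 members. Nlrp12, an inflammasome-family sensor that restrains inflammation, was found in 34 members with at most 3 UMIs in any of them, and Mirt1, a long noncoding RNA, in 50 members with at most 6.

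Because depth differed, shares of nuclei with a UMI were also computed at 500 UMIs per nucleus. Il1r2 was then expected in 36.9% of members and 1.04% of macrophage-like nuclei (unthinned 51.5% and 4.57%). For Il1b the values were 42.5% and 1.40%, with 18.2% in monocyte-like and 1.43% in stromal nuclei. The macrophage-like and stromal values were alike, and the part of free RNA in them was not tested. For Cd44 the unthinned shares were 66.7% and 71.4%, whereas at equal depth they were 49.2% and 22.4%, in the order of the CPM. Zeb2 was expected in 26.05% of members and 87.45% of macrophage-like nuclei.

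**Figure D4:**
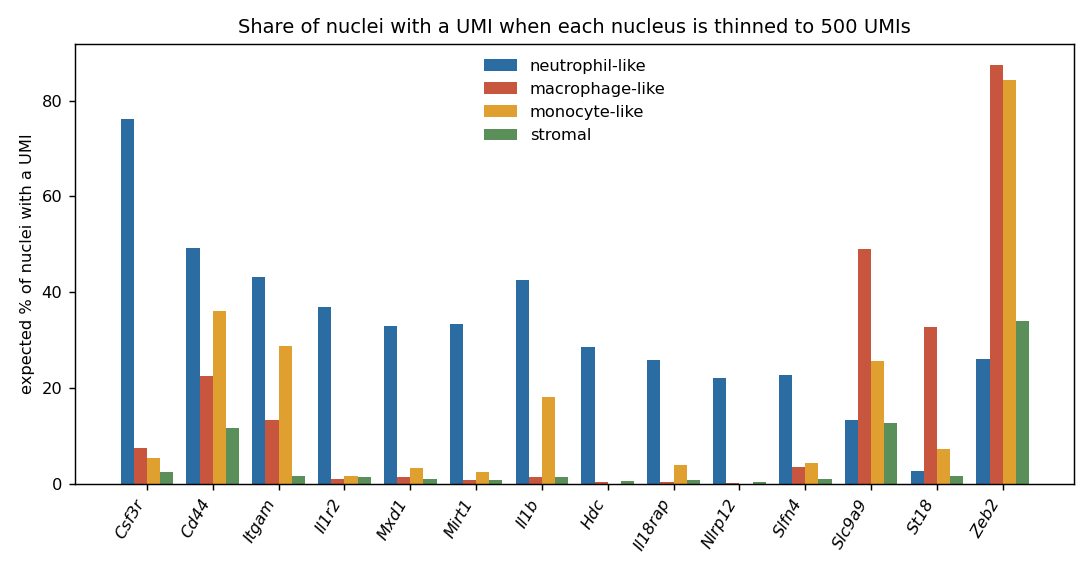
Expected share of nuclei with at least 1 UMI of each gene after thinning every nucleus to 500 UMIs, in neutrophil-like (99), macrophage-like (350), monocyte-like (24) and stromal (232) nuclei; Csf3r is a rule gene. Il1r2 was expected in 36.9% of neutrophil-like and 1.04% of macrophage-like nuclei, while Zeb2 had the opposite order (26.05% and 87.45%).

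The members were not uniform among themselves. Ltf UMIs lay in 8 members only, with 17, 10, 9, 8, 3, 2, 2 and 1 UMIs. The 4 members with at least 5 Ltf UMIs held 44 of the 52 UMIs and 3783 of the 144715 member UMIs. Those 4 held 11 of 16 UMIs of Chil3, 11 of 21 of Abca13, 11 of 23 of Anxa1 (annexin A1) and 4 of 9 of Ngp. They held 0 of 208 UMIs of Il1b, 0 of 130 of Il1r2, 1 of 108 of Hdc and 2 of 413 of Csf3r. They also held 0 of 34 UMIs of Cxcr2, too few in all for a 0 to tell these 4 apart. Csf3r and Cxcr2 are rule genes. Il1b UMIs lay in 53 other members, with up to 15 in a nucleus, and no member held both Ltf and Il1b. Since Chil3 counted against membership in the rule, nuclei richer in Chil3 than in the 4 rule genes were left out. Members with and without Il1b had similar depth (medians of 841.0 and 828.0 UMIs).

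**Figure D5:**
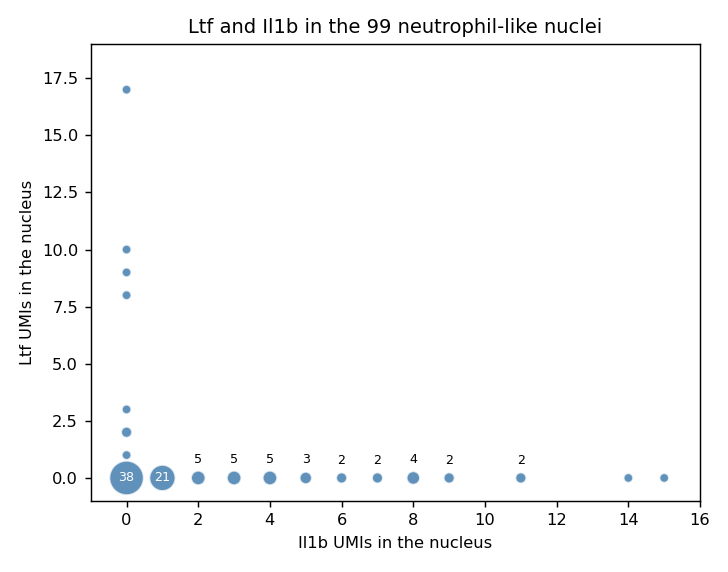
UMIs of Il1b (horizontal) and Ltf (vertical) in each of the 99 neutrophil-like nuclei; point area grows with the number of nuclei at that position, printed where it exceeds 1 along the lower edge. All 8 nuclei with Ltf lie at 0 Il1b UMIs, the 53 nuclei with Il1b lie at 0 Ltf UMIs, and 38 nuclei hold neither.

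Other genes were shared more widely. Hdc was found in 40 members and Il1b in 53, with 29 holding both and 35 neither. Il1b and Il1r2, the ligand and its decoy receptor, were both found in 35 members and both missing in 30. Slfn4 was more concentrated: 32 members held it, and 10 of them held 68.5% of its 92 UMIs, with 22 in a single nucleus. For Csf3r the 10 highest members held 26.6%. At a median of 833.0 UMIs per nucleus, a gene with 0 UMIs in a member cannot be called absent from it.

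The sequences before the starts of Ltf and Il1b are shown since both were among the 12 highest genes against all other filtered nuclei. No member held UMIs of both. They are the 250 bases upstream of the RefSeq starts on GRCm38.p6, at chr9:111019042-111019291 (+ strand) for Ltf, whose last 21 bases lie inside the GENCODE gene, and chr2:129371140-129371389 (- strand) for Il1b, each 5′ to 3′ along its gene. Capitals mark matches, on either strand, to the C/EBP-type letters TTGCNNAA, the PU.1-type letters GAGGAA and the TATA-type letters TATAAA, none of which overlap here.
Ltf: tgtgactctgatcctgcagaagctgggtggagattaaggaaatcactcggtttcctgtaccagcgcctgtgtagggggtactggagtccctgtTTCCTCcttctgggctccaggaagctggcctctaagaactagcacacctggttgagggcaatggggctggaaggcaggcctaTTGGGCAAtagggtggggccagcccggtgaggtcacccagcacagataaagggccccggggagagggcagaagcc
Il1b: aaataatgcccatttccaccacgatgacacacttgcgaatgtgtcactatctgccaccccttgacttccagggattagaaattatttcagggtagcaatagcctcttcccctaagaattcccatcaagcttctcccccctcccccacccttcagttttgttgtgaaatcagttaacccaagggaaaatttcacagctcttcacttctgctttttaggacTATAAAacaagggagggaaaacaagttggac
The Ltf window held 1 C/EBP-type match, 75 to 68 bases before the start, and 1 PU.1-type match, 157 to 152 bases before it. The Il1b window held 1 TATA-type match, 31 to 26 bases before the start. Among 32851 RefSeq windows of the same length, 9.56%, 23.3% and 12.4% held a match to the C/EBP-type, PU.1-type and TATA-type letters.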

How the data were processed

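The authors deposited, for each library, a 10x matrix of raw UMI counts per gene and barcode. Per the file headers it was made with cellranger 7.0.1. The submitters' notes name Cell Ranger and mm10, while the protocol text names a human reference; the gene identifiers are all mouse, and intronic reads were included. Levels therefore include unspliced RNA. The 2 libraries held 9389014 UMIs in 48987 barcodes (day 1) and 5899407 UMIs in 1446 barcodes (MTI), the latter with at least 500 UMIs each. They shared 33 barcode sequences, 1 of them a member's.

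Members, comparison classes and gene lists were chosen with earlier results of these data known. For each class, pooled gene counts were divided by the class total (CPM). CPM carries an exact Poisson interval, a ratio an exact conditional binomial interval, and a share a Clopper-Pearson interval, all 95%. A gene was tested with at least 10 UMIs over both groups and called at 2-fold; a group at 0 was set to a floor of 3 UMIs. With 1 library per condition there are no p-values. The genes named were the members of 27 lists with at least 10 UMIs or defining markers near 0, and the 12 highest and lowest by ratio with at least 30 UMIs over both groups, clone names left out. They also included the 5 genes leading the cluster that held most members. Where a list gene below 10 UMIs is named, it was chosen after its value was seen. Some genes that met these rules are not reported here.

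Clusters (scanpy 1.11.5, resolution 1.0, 2000 variable genes, 30 components, 20 neighbours) left out the 19 rule genes. Doublets were scored with scrublet in scanpy, and none were removed. Myogenic nuclei, which the authors removed, were kept in both libraries. Shares at 500 UMIs are exact expectations without replacement. Gene positions are from GENCODE for mm10 and upstream sequences from RefSeq. Ratios were tested on simulated data. Python 3.11.15, scipy 1.17.1 and numpy 2.4.6 were used.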

Additional observations from a re-analysis of the deposited data

Results flagged for a closer look

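Outside the filtered nuclei, 11 of the 319 remaining barcodes of the MTI library met the rule on neutrophil genes, and all 11 exceeded the mitochondrial limit, with a median mitochondrial share of 9.27% and a median of 969.0 UMIs. They held 31 UMIs of Il1b (1568 CPM, exact Poisson 95% interval 1065 to 2225), 18 of Il1r2 (910.2 CPM) and 11 of Hdc (556.2 CPM), levels whose intervals overlap those of the 99 members.

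In the day 1 fracture library 8 barcodes met the rule, of 5410 that passed the same filters (0.15%, exact Clopper-Pearson 95% interval 0.064% to 0.29%). Their median was 336.5 UMIs, below the 500 UMIs that every MTI barcode reached; of the 1346 filtered day 1 barcodes with at least 500 UMIs, 2 met the rule. The 8 held 1 UMI of Il1b, 1 of Hdc and 143 of Ttn among 4789 UMIs. The limits here were those of the MTI library, whereas the authors set a lower mitochondrial limit for day 1. Myogenic nuclei, which the authors removed, were kept, so the 0.15% is not a share of the nuclei they analysed.

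Among filtered MTI nuclei, 14 had exactly 2 rule UMIs with all other conditions met, and 10 of these held a UMI of the 19 neutrophil markers outside the rule, with up to 12 in a nucleus. None of these 3 sets entered a comparison.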

How the results depend on the processing

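No paired analysis was possible because each condition had 1 library. The share of neutrophil-like nuclei, 8.78%, became 6.65% at 5 rule UMIs, 6.92% at 500 genes and 5.68% when each nucleus was thinned to 500 UMIs before the rule. It lay between 7.54% and 10.0% under the other settings tried. The count of genes at least 2-fold higher than in macrophage-like nuclei, 2129 of 10875 tested, became 874 of 7285 at 30 UMIs over both groups. After thinning it was 398 of 1922. The count of lower genes, 1938 of 10875, was 1809 of 7285 at 30 UMIs and 628 of 1922 after thinning. As a mean over nuclei it was 2982 of 10875. The numbers tested differ, so a smaller count is not always a smaller share. The other settings kept both counts within 1.5 times. Single genes turned direction in 4 cases: Ebf1 (0.51) after thinning, Oasl2 (0.90) at 500 genes, and Flt1 (0.98) and Ryr1 (0.73) without the 14 members with a second lineage signal. The cause was not tested. Leaving those 14 out, chosen after seeing the data, moved 67 of 142 gene ratios beyond their intervals. Thinning before the rule moved 68 of 120, and a mean of per-nucleus CPM moved 57 of 147. A minimum of 500 genes moved 12 of 147, and each other setting moved at most 10. Leaving out barcodes found in both libraries moved 0 of 147.
Depth limits single nuclei: with 3 UMIs as the floor, a gene under 20.7 CPM cannot be told from 0 in the pooled members.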

Other observations

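The osteogenic factor gene Runx2 gave 99 UMIs in 27 members. Of these, 33 lay in the 85 members without a second lineage signal, a CPM ratio of 3.79 to macrophage-like nuclei. Runx1 gave 177 UMIs, of which 57 lay in the 85, and its ratio was 1.22 (exact conditional 95% interval 1.04 to 1.42) with 99 members and 0.70 with 85.

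Acod1, encoding the enzyme that makes itaconate, gave 11 UMIs in 6 members, a ratio of 15.9 (5.82 to 45.5). Anxa1 gave 23 UMIs in 12 members and was at 0.93 of the macrophage-like level, although 11 of the 23 lay in the 4 members with most Ltf. The 9 members without a UMI of Csf3r or Cxcr2 entered through S100a8 and S100a9, and 2 of the 9 held Il1b.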
